A study of Mus musculus with 54 samples.

Results

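The 10 genes described here, Tgfb1, Nrros, Tgfbr1, Tgfbr2, Smad2, Smad3, Smad4, Smad7, Ski and Skil, encode the ligand, a latency protein, the receptors, the Smad proteins and the Ski-type inhibitors of the transforming growth factor beta (TGF-beta) pathway. They were taken by symbol from the count tables, in which all 10 of the 10 were found among 33280 gene symbols, and all 10 had enough reads to be tested in each of the 19 comparisons made. Bulk RNA-seq had been done on macrophages sorted from the brains of 24 mice after removal of the choroid plexuses, as microglia (MG) and as subdural CNS-associated macrophages (sdCAMs). The 54 libraries fell into 18 groups of 3.

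Wild-type (WT) mice and mice with the genotype label Ccr2 KO, here written Ccr2-/-, were each studied in 3 conditions, and MG and sdCAMs were sorted from every animal. Untreated mice were given PBS. CTL mice had received the vehicle of BLZ945, and then lipopolysaccharide (LPS), the endotoxin of Gram-negative bacteria. BLZ945 mice had received that inhibitor of the CSF1 receptor, after which brain macrophages are lost and repopulate, and were likewise injected with LPS. Reporter mice, labelled Ccr2CreERT2/CreERT2:R26tdT/tdT, had all received BLZ945 and 2 mg tamoxifen per dose, then PBS or LPS, and their sdCAMs were sorted as tdTomato-positive (tdT+) and tdTomato-negative (tdT-) cells beside MG. Because the Cre is driven from the Ccr2 locus, tdT+ cells are those that expressed Ccr2 when tamoxifen was given, or their descendants. Injections were given 12 h before sorting and, in treated mice, 8 weeks after treatment. A BLZ945 group without LPS in WT or Ccr2-/- mice and a reporter group without BLZ945 were not analysed here. Untreated mice had no vehicle, so that in WT and Ccr2-/- mice the effect of LPS and that of the vehicle cannot be told apart. Per the study's methods both sexes were in each group and treated mice were young adults when gavage began, while the age of untreated mice is not given in the sources used here.

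TGF-beta is secreted in a latent form, bound to proteins that hold and release it, of which NRROS, the product of Nrros, is the one used by microglia and other macrophages. The free ligand joins the receptors TGFBR2 and TGFBR1, which phosphorylate SMAD2 and SMAD3. With SMAD4 these enter the nucleus and act on target genes, while SMAD7 blocks the receptors and SKI and SKIL hold Smad complexes in a repressed state. In the adult brain this pathway is known for keeping microglia in their resting identity, and the genes that it maintains there include the microglial markers P2ry12, Tmem119 and Sall1.

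Library totals, in units of 1000000 counts, were 7.5 to 11.3 in the MG of WT and Ccr2-/- mice and 7.89 to 10.7 in Ccr2-/- sdCAMs, but 1.71 to 7.7 in WT sdCAMs and 2.06 to 9.85 in reporter sdCAMs. After LPS, Saa3, an acute-phase gene, took 23 to 35.8% of all counts in WT sdCAMs of CTL mice and 5.88 to 6.71% in those of Ccr2-/- mice. The TMM scaling factors ran from 0.3445 to 1.468 in WT libraries and from 0.8562 to 1.117 in Ccr2-/- libraries. The summed sdCAM markers lay at 7910 to 14700 CPM in untreated sdCAMs and at 7.71 to 26.5 CPM in untreated MG. Summed microglial markers in sdCAMs, as a share of the same animal's MG, reached 7.17 to 10.7% in untreated Ccr2-/- mice and 15.5, 21 and 34.2% in untreated WT mice 9, 14 and 15. Reads of Ccr2 numbered 20 to 46 per library in untreated Ccr2-/- sdCAMs and 42 to 131 in WT ones. These are raw reads, from totals of 8.12 to 8.93 and of only 1.93 to 3.05, in units of 1000000 counts. Summed monocyte markers, Ccr2 among them, were at 2.46 to 5.59 CPM in the former libraries and 28.4 to 43.9 CPM in the latter. Whether the deleted part of Ccr2 was counted is not given in the sources used here. In bulk RNA, fewer cells of a type and less RNA per cell cannot be told apart. The titles of the 12 Ccr2-/- libraries with LPS contradict their cell type field and library name on which population was sorted. They were assigned by that field, and summed sdCAM markers were then at 2910 to 4600 CPM in sdCAMs and 3.52 to 7.79 CPM in MG. Of the WT sdCAM libraries, 6 carry a mark about an IEG correction in their labels, a mark not explained in the sources used here: all 3 of CTL mice, those of untreated mice 9 and 14 and that of BLZ945 mouse 12. Levels below are counts per 1000000 (CPM) scaled by TMM within each deposited table unless called plain CPM, which is scaled by the library total alone and is the scale of every marker sum. Differences are log2 fold changes ± SE from edgeR's quasi-likelihood test, and a gene is said to pass at a Benjamini-Hochberg adjusted p under 0.05 over all genes tested. The SE was derived from that test, as the absolute log2 change divided by the square root of its F statistic. Statements on overlap between groups of 3 libraries only describe the levels. The share of all genes without overlap was not computed, so a lack of overlap is not a further test.

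Promoter sequences are shown for Tgfbr1, Tgfbr2 and Nrros, because in untreated Ccr2-/- mice these were the member with the highest level per length in MG, a member at a like level in MG and sdCAMs and the member higher in sdCAMs. They are the 250 bases before the gene start on the RefSeq assembly GRCm38.p6, at chr4:47352972-47353221 on the plus strand for Tgfbr1, chr9:116175364-116175613 on the minus strand for Tgfbr2 and chr16:32165595-32165844 on the minus strand for Nrros, each written from 5′ to 3′. Capitals mark the Smad box CAGAC, the short motif bound by Smad proteins, searched on both strands.

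Tgfbr1: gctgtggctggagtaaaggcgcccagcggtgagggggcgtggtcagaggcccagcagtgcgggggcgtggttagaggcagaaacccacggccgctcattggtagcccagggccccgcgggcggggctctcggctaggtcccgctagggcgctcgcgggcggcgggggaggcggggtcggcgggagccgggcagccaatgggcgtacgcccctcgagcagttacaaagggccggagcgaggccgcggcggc

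Tgfbr2: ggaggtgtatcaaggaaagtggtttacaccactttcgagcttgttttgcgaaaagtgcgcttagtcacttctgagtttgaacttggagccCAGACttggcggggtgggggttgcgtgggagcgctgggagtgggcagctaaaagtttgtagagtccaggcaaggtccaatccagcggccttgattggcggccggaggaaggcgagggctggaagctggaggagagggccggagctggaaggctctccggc

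Nrros: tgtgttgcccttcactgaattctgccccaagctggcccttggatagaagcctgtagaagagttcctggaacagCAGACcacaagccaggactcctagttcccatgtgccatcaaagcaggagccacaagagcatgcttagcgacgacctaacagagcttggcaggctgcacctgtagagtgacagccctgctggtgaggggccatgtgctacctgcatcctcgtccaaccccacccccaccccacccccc

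The Smad box was found 1 time in the Tgfbr2 promoter, 1 time in the Nrros promoter and 0 times in the Tgfbr1 promoter, although a second RefSeq start of Tgfbr1 had 1. It occurs in 42.2% of all 32851 promoter windows of this length, so its presence in either gene is common. The Tgfbr1 window was rich in G and C, 74.8% against a median of 52.4% over all windows, and held 29 CG pairs against a median of 6. Those of Tgfbr2 and Nrros both had 58.4% G and C, with 12 and 3 CG pairs. Searches on both strands for TGANTCA, the AP-1 motif, GAGGAAGT, a PU.1 motif, and the NF-kB motif, GGG and TTCC set 3 bases apart, found no match in the promoter windows of the 6 members that RefSeq's table holds, Tgfb1, Nrros, Tgfbr1, Tgfbr2, Smad3 and Ski. These motifs occur in 6.75, 2.44 and 4.65% of all windows. A match in a window is a description of letters and not a binding site.

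In untreated mice the members divided by cell type, most clearly in Ccr2-/- animals, whose MG and sdCAM libraries were of similar depth. There, Tgfbr1, Smad3, Smad7, Ski, Skil and Tgfb1 were lower in sdCAMs than in MG, Nrros was higher, and the differences of Tgfbr2, Smad2 and Smad4 did not pass. Of the 10 members, 1 passed as higher and 6 as lower, where 12.5 and 9.9% of all genes tested did so. The median difference over the members was -1.04 on the log2 scale, and 0 over all genes.

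Of the ligand and its latency protein, Tgfb1 stood at 329, 325 and 348 CPM in MG of Ccr2-/- mice 1m, 3m and 5f and at 208, 199 and 211 CPM in their sdCAMs. Every sdCAM library was below every MG library, by a log2 difference of -0.70 ± 0.13 (edgeR, adjusted p = 0.000407). Nrros went the other way, with 467, 433 and 410 CPM in MG and 1075, 1088 and 1032 CPM in sdCAMs. The groups did not overlap, and the log2 difference was 1.29 ± 0.13 (edgeR, adjusted p = 3.61e-07), a 2.44-fold higher level in sdCAMs.

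Among the receptors, Tgfbr1, the kinase that phosphorylates SMAD2 and SMAD3, was at 3344, 3665 and 3502 CPM in MG and at 427, 398 and 691 CPM in sdCAMs of the same mice. The lowest MG library was thus far above the highest sdCAM library, with a log2 difference of -2.79 ± 0.24 (edgeR, adjusted p = 5.53e-08). Tgfbr2, which binds the ligand first, was at 1042, 938 and 895 CPM in MG and at 1117, 983 and 990 CPM in sdCAMs. Its groups overlapped and the log2 difference of 0.10 ± 0.16 did not pass (edgeR, adjusted p = 0.711). The members of the receptor pair therefore differed in their distribution between the cell types, Tgfbr1 being lower in sdCAMs and Tgfbr2 showing no difference beyond the spread.

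The Smads differed among themselves in the same way. Smad3 was at 96.9, 105.5 and 95.3 CPM in MG and at 22.2, 35 and 21.6 CPM in sdCAMs, a log2 difference of -1.92 ± 0.30 (edgeR, adjusted p = 8.3e-05). Smad2, the other receptor-regulated Smad of the pathway, was at 91.7 to 119 CPM in MG and at 67 to 91.0 CPM, just below without overlap, in sdCAMs, and did not pass (log2 -0.38 ± 0.19, adjusted p = 0.16). Smad4, the partner of both, was at 88.3 to 105 CPM in MG and 98.4 to 116 CPM in sdCAMs, ranges that overlap, and did not pass either (log2 0.16 ± 0.22, adjusted p = 0.663).

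The inhibitors were lower in sdCAMs, each without overlap between the groups. Smad7, the inhibitory Smad, had 95.2, 99.0 and 86.0 CPM in MG but 7.66, 4.27 and 15.0 CPM in sdCAMs, which at -3.38 ± 0.34 on the log2 scale was the widest difference of any member (edgeR, adjusted p = 3.7e-07). Skil fell within 280 to 283 CPM in all 3 MG libraries and stood at 45.5, 55.6 and 92.1 CPM in sdCAMs, a log2 difference of -2.13 ± 0.30 (edgeR, adjusted p = 2.52e-05). Ski was at 395 to 417 CPM in MG and 147 to 171 CPM in sdCAMs, a log2 difference of -1.39 ± 0.18 (edgeR, adjusted p = 8.21e-06). No call among the members in untreated Ccr2-/- mice was lost when any 1 of the 6 libraries was left out.

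**Figure D1:**
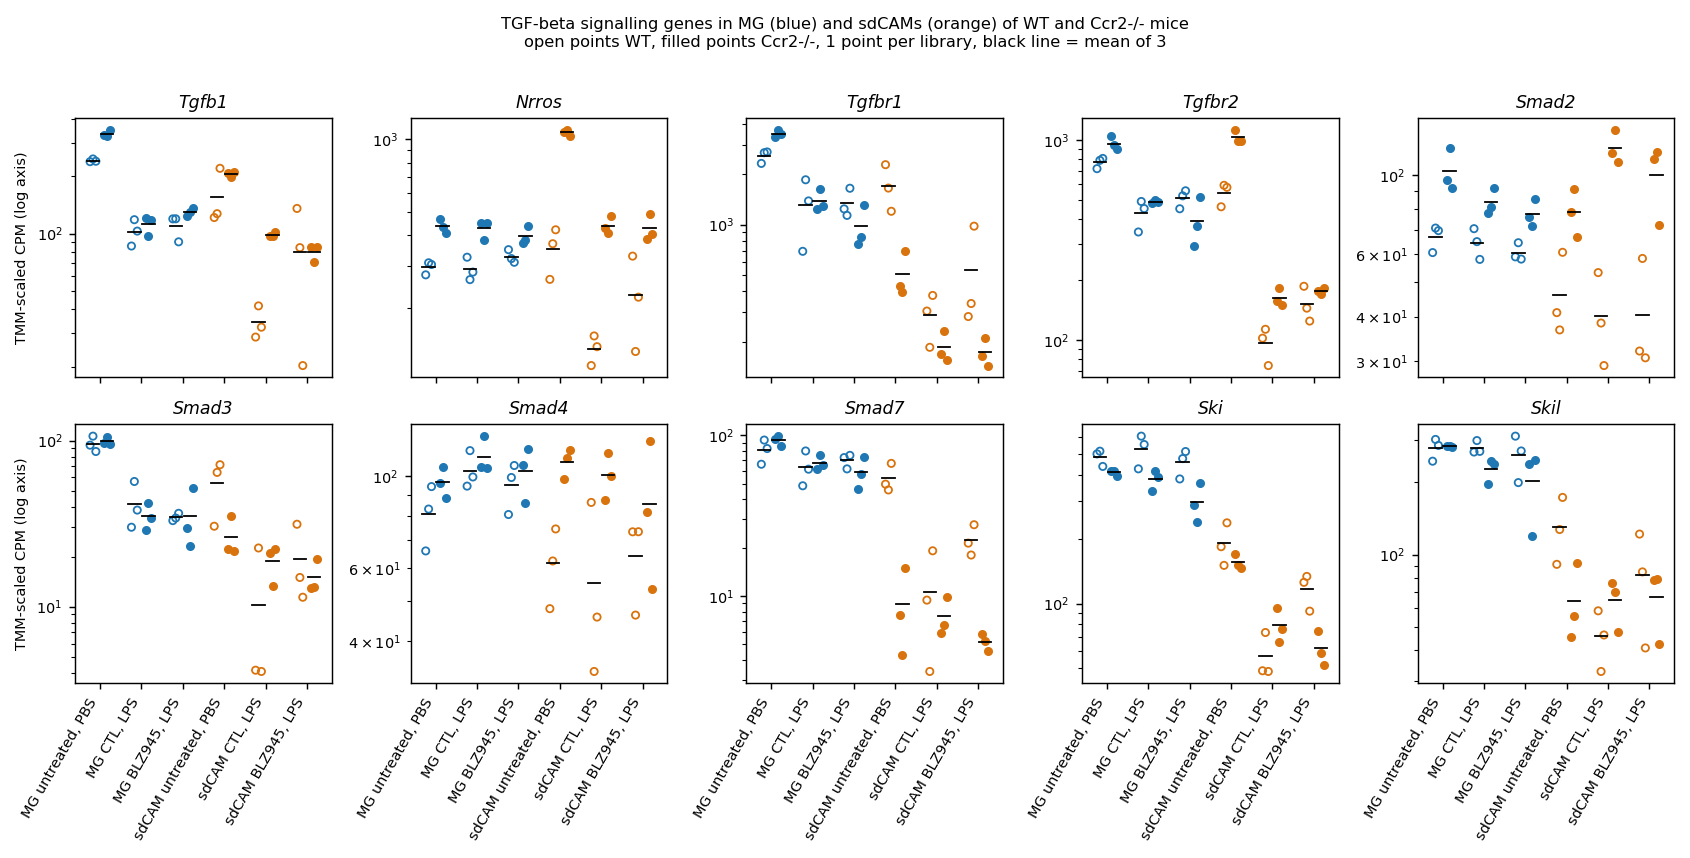
Level of each member in every WT (open points) and Ccr2-/- (filled points) library, as TMM-scaled CPM on a log axis whose range differs between panels, with MG in blue, sdCAMs in orange and a black line at the mean of 3. WT and Ccr2-/- levels were scaled apart. Among the Ccr2-/- groups, Nrros stands highest in untreated sdCAMs, at 1032 to 1088 CPM, while Tgfbr1 stands highest in untreated MG, at 3344 to 3665 CPM.

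Measured in plain CPM against MG of the same mouse, the members of untreated Ccr2-/- sdCAMs ran from a few percent to more than the level in MG. Smad7 was at 4.2 to 17.3% and Tgfbr1 at 10.6 to 19.6%, ranges that overlap the 7.17 to 10.7% of the summed microglial markers. Skil was at 15.8 to 32.6%, Smad3 at 22.5 to 32.4% and Ski at 35.3 to 40.4%, all above the marker share. Tgfb1 was at 59.8 to 62.1% and Smad2 at 72.4 to 79.8%, while Smad4 at 101 to 130%, Tgfbr2 at 102 to 110% and Nrros at 227 to 249% reached or passed the level in MG. None of the 5 markers summed, P2ry12, Tmem119, Sall1, Sparc and Siglech, was at 0 in any of these libraries, and the part that MG RNA had in the sdCAM values was not tested.

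**Figure D2:**
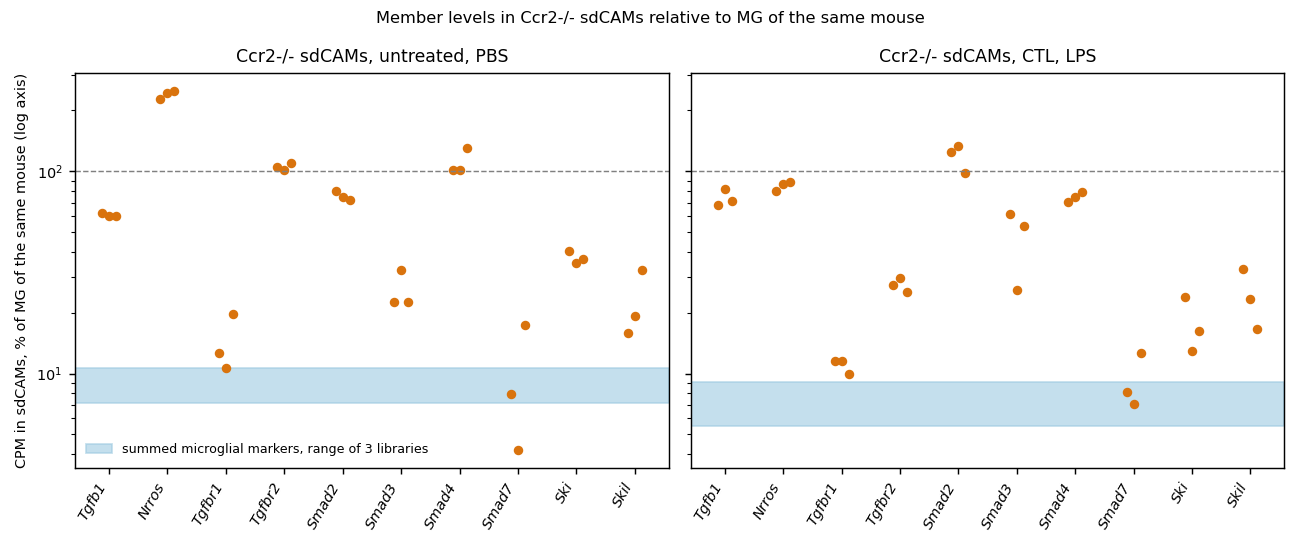
Plain CPM of each member in Ccr2-/- sdCAMs as a percentage of MG of the same mouse, on a log axis, in untreated mice (left) and CTL mice after LPS (right), 1 point per mouse. The blue band is the range of the summed microglial markers, 7.17 to 10.7% on the left, where Smad7 and Tgfbr1 lie nearest to it and Nrros lies at 227 to 249%.

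To compare genes with each other, CPM was divided by the length of the merged exons of all annotated transcripts. This can exceed the length of the transcript expressed, which was not examined, so the order below may depend on it. In untreated Ccr2-/- MG, Tgfbr1 had the highest level per length, 536 ± 24.6 CPM per kb (SD, n = 3), followed by Tgfbr2 at 117 ± 9.22 and Nrros at 105 ± 6.78 CPM per kb, whose libraries overlapped. Next came Ski at 73.6, Tgfb1 at 66.3, Skil at 29 and Smad4 at 26 CPM per kb, none of which overlapped its neighbour in the order. Smad7 at 20.7 and Smad3 at 17.9 CPM per kb overlapped, and Smad2 was lowest at 11.7. In untreated Ccr2-/- sdCAMs the order was led by Nrros at 255 ± 7.02 CPM per kb, then Tgfbr2 at 126 ± 9.21 and Tgfbr1 at 77.4 ± 24.7, with no overlap between these neighbours. Smad7 was the lowest member there, at 1.98 ± 1.21 CPM per kb.

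In untreated WT mice the division was less clear, and only Ski passed. The member levels in sdCAMs were again below MG for 9 of the 10 genes by the fitted difference and above it for Nrros, but the 3 sdCAM libraries spread widely. For Ski, MG of mice 9, 14 and 15 had 500, 515 and 437 CPM and sdCAMs had 184, 151 and 238 CPM, a log2 difference of -1.34 ± 0.31 (edgeR, adjusted p = 0.00777). In all, 0 members passed as higher and 1 as lower, beside 12 and 5.46% of all genes tested, and 2 members had an unadjusted p under 0.05. Of the 13136 genes tested, 4348 had such an unadjusted p.

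Tgfbr1 showed how the WT libraries differed from the Ccr2-/- ones. It stood at 2322, 2691 and 2719 CPM in WT MG and at 2282, 1654 and 1202 CPM in sdCAMs of mice 9, 14 and 15, so that sdCAMs of mouse 9 nearly reached its MG on the TMM scale. In plain CPM these sdCAM values were 63.2, 46.3 and 44.6% of MG, while the summed microglial markers were at 15.5, 21 and 34.2%. Mouse 9 had the highest Tgfbr1 share and the lowest marker share of the 3 mice, and the part that MG RNA had in these values was not tested. The log2 difference was -0.59 ± 0.49 (edgeR, adjusted p = 0.422). With the IEG mark as a covariate it was -1.40 and passed (adjusted p = 0.045). Nrros was at 263, 369 and 422 CPM in WT sdCAMs and 275, 308 and 303 CPM in MG, groups that overlapped (log2 0.25, adjusted p = 0.629). Skil was at 91.1, 127 and 173 CPM in WT sdCAMs and 244 to 301 CPM in MG, without overlap, and missed the threshold (log2 -1.08 ± 0.37, adjusted p = 0.0513), which it passed without the sdCAM library of mouse 15 (log2 -1.36, adjusted p = 0.0276). WT and Ccr2-/- mice are in separate tables that were scaled apart, so the genotypes were not compared by a test.

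**Figure D3:**
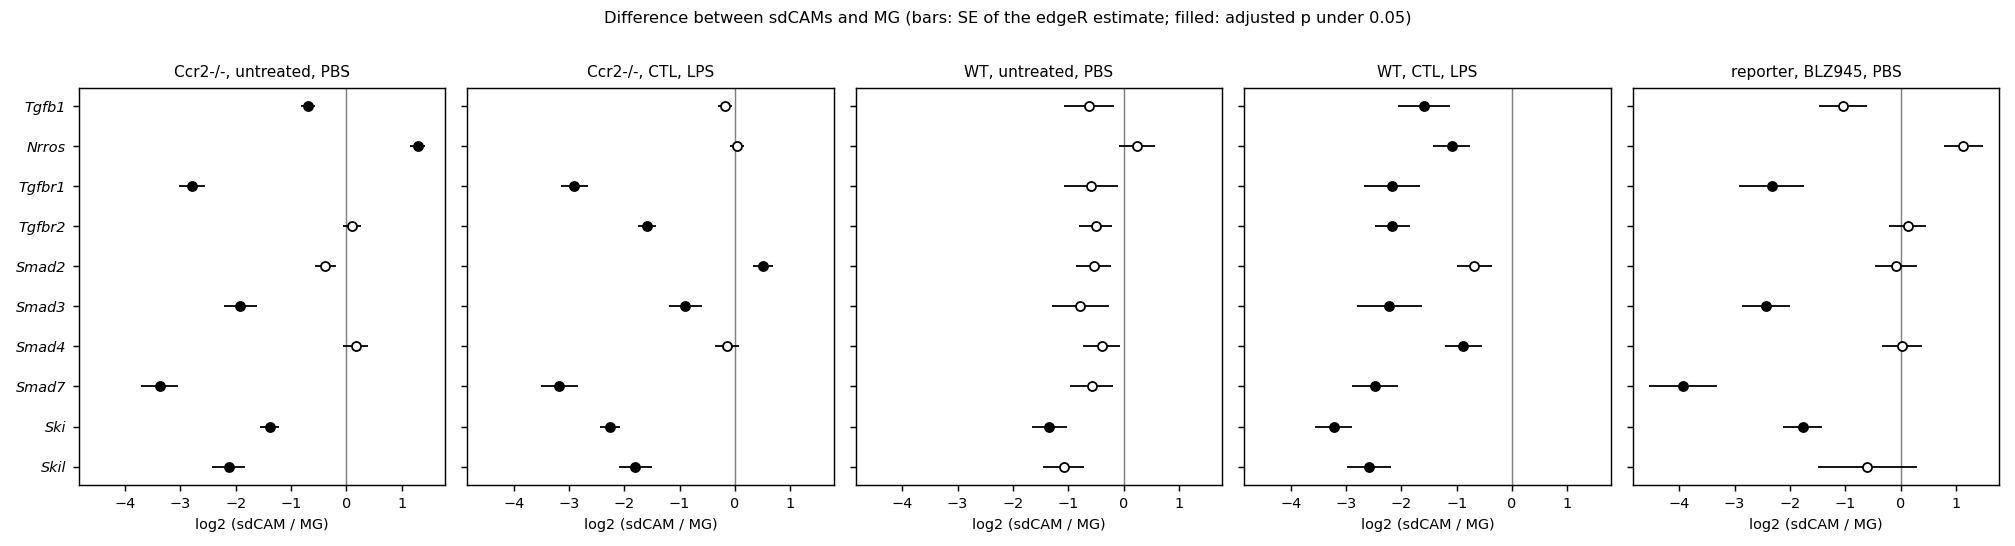
Fitted log2 difference between sdCAMs and MG for each member in 5 comparisons, with bars for the SE of the edgeR estimate and filled points where the adjusted p was under 0.05. Smad7, Tgfbr1, Smad3 and Ski lie to the left of 0 in every panel, and Nrros lies to the right in untreated Ccr2-/- mice at 1.29 but to the left in WT mice after LPS at -1.09.

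With LPS the same 4 members fell in MG of both genotypes, the ligand gene Tgfb1, both receptors and Smad3, and no member passed as higher. In Ccr2-/- MG, 0 of the 10 members passed as higher and 4 as lower, where 19.4 and 15.5% of all genes passed. In WT MG the counts were likewise 0 and 4, where 16.7 and 14.2% of all genes passed. The member medians were -0.38 and -0.28 on the log2 scale, and those of all genes 0.003 and 0.023.

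Tgfb1 in Ccr2-/- MG was at 325 to 348 CPM in untreated mice and at 120, 97.3 and 118 CPM in CTL mice V1m, V2m and V4f after LPS, a log2 difference of -1.56 ± 0.13 (edgeR, adjusted p = 1.33e-06). In WT MG it was at 238, 246 and 239 CPM untreated and at 86, 118 and 103 CPM in CTL mice 1, 4 and 6, a log2 difference of -1.31 ± 0.17 (edgeR, adjusted p = 0.000249). In neither genotype did any library after LPS reach the level of an untreated one.

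Tgfbr1 in Ccr2-/- MG stood at 1239, 1626 and 1299 CPM after LPS, below the 3344 to 3665 CPM of untreated mice (log2 -1.32 ± 0.19, edgeR adjusted p = 0.000102). In WT MG it stood at 693, 1854 and 1386 CPM after LPS, below the untreated 2322 to 2719 CPM (log2 -1.03 ± 0.29, adjusted p = 0.018). Mouse 1 was the lowest of the 3 WT mice after LPS for each of the 4 members that fell. The WT call for Tgfbr1 was lost without CTL mouse 6 (adjusted p = 0.0518), untreated mouse 14 (0.0547) or untreated mouse 15 (0.0546).

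Tgfbr2 in Ccr2-/- MG was at 481, 497 and 489 CPM after LPS and 895 to 1042 CPM in untreated mice (log2 -0.95 ± 0.18, edgeR adjusted p = 0.000818). In WT MG it was at 346, 492 and 453 CPM after LPS and 718 to 807 CPM in untreated mice (log2 -0.91 ± 0.16, adjusted p = 0.00146). Smad3 was at 28.8, 41.9 and 34.3 CPM after LPS in Ccr2-/- MG, from 95.3 to 105.5 CPM untreated (log2 -1.49 ± 0.26, adjusted p = 0.000494), and at 30.1, 56.7 and 38.2 CPM in WT MG, from 85.9 to 106 CPM (log2 -1.26 ± 0.23, adjusted p = 0.00157). The ligand, its receptor pair and 1 of the receptor-regulated Smads were therefore all lower in MG 12 h after LPS.

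The other 6 members did not pass in MG of either genotype. Nrros was at 382 to 451 CPM after LPS and 410 to 467 CPM in untreated Ccr2-/- MG, overlapping groups with a log2 difference of -0.02 ± 0.13 (edgeR, adjusted p = 0.934). Ski was at 337 to 416 CPM after LPS and 395 to 417 CPM untreated, also overlapping (log2 -0.09, adjusted p = 0.71). For Smad7, 62, 75.6 and 65 CPM after LPS lay below 86.0 to 99.0 CPM in untreated Ccr2-/- MG, and the difference of -0.45 ± 0.18 did not pass (adjusted p = 0.0697), though it did by DESeq2 (adjusted p = 0.0392) and with only the 6 libraries fitted (edgeR, 0.0132), as Skil did in the latter fit (0.0297). In WT MG Smad7 had a log2 difference of -0.42 (adjusted p = 0.157), which passed at -0.65 without CTL mouse 4 (adjusted p = 0.0183). Smad2, Smad4 and Skil had log2 differences of -0.28, 0.22 and -0.30 in Ccr2-/- MG and -0.14, 0.27 and -0.07 in WT MG.

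In Ccr2-/- sdCAMs 5 members passed as lower with LPS, Tgfbr2, Nrros, Tgfbr1, Tgfb1 and Ski, and none passed as higher by edgeR. Over all genes 15.8% passed as higher and 13.1% as lower. Tgfbr2 fell furthest, from 1117, 983 and 990 CPM to 156, 181 and 150 CPM, groups far apart, with a log2 difference of -2.68 ± 0.15 (edgeR, adjusted p = 7.4e-08) that left 0.156 of the untreated level. Nrros, whose levels in MG with and without LPS overlapped, went from 1032 to 1088 CPM down to 427, 408 and 480 CPM (log2 -1.30 ± 0.14, adjusted p = 1.89e-05).

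Tgfb1 went from 199 to 211 CPM down to 97.1, 97.2 and 102 CPM in these sdCAMs (log2 -1.08 ± 0.15, edgeR adjusted p = 0.000176). Tgfbr1 was at 169, 230 and 156 CPM after LPS, below the untreated 398 to 691 CPM (log2 -1.47 ± 0.24, adjusted p = 0.000638). Ski was at 95.7, 66.2 and 76.4 CPM after LPS, below 147 to 171 CPM (log2 -0.99 ± 0.20, adjusted p = 0.00284). All 3 genes were without overlap between the groups, and these 5 calls held without any 1 of the 6 libraries. Summed neutrophil markers rose from 0.973 to 2.58 CPM to 59.2 to 90 CPM in these sdCAMs with LPS, summed sdCAM markers went from 14300 to 14700 CPM down to 4210 to 4600 CPM, and their part in the member differences was not tested.

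Of the members that did not pass in Ccr2-/- sdCAMs, Smad2 pointed upwards, at 115, 133 and 109 CPM after LPS against 67 to 91.0 CPM untreated (log2 0.58 ± 0.22, edgeR adjusted p = 0.0653). It passed as higher by DESeq2 (adjusted p = 0.0394), with a filter at a mean of 10 counts (edgeR, 0.0494) and with only the 6 libraries fitted (edgeR, 0.0249). Smad3, at 20.9, 13.4 and 22.3 CPM after LPS, overlapped its untreated libraries at 21.6 to 35 CPM (log2 -0.50, adjusted p = 0.318). Skil at 47.7 to 76.3 CPM, Smad7 at 5.91 to 9.91 CPM and Smad4 at 87.7 to 114 CPM overlapped theirs too, with log2 differences of -0.01, -0.29 and -0.12. Smad7 and Skil, low in sdCAMs before LPS, thus showed no change beyond the spread.

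In WT sdCAMs 3 members passed as lower with LPS, Tgfbr2, Smad7 and Ski, and 0 as higher, beside 2.62 and 3.7% of all genes. Tgfbr2 went from 463, 592 and 579 CPM to 102, 113 and 74.3 CPM (log2 -2.50 ± 0.47, edgeR adjusted p = 0.0149). Smad7 went from 45.8 to 67 CPM down to 9.42, 3.39 and 19.1 CPM (log2 -2.28 ± 0.61, adjusted p = 0.0494), and Ski from 151 to 238 CPM down to 48.6, 73.3 and 48.3 CPM (log2 -1.75 ± 0.41, adjusted p = 0.0332). All 3 were without overlap between the groups.

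Further WT differences were as large but missed the threshold. Tgfbr1 was at 305, 185 and 378 CPM after LPS and 1202 to 2282 CPM untreated (log2 -2.56, edgeR adjusted p = 0.053), and Tgfb1 at 28.7, 41.7 and 32.3 CPM after LPS and 121 to 220 CPM untreated (log2 -2.19, adjusted p = 0.0585). Smad3 and Nrros had log2 differences of -2.53 and -1.36 (adjusted p = 0.0784 and 0.111). The number of members that passed depended on the fit: 8 by DESeq2, 7 with only these 6 libraries fitted, 5 with the IEG mark as covariate, and 0 to 2 with 1 library left out. The number of all genes rose too, from 664 in the main fit to 1766 by DESeq2, 1359 with the 6 libraries and 1142 with the covariate. The calls for Ski and Smad7 were lost without any 1 of the 6 libraries, and that for Tgfbr2 without the library of CTL mouse 1 (adjusted p = 0.0567), CTL mouse 6 (0.0877) or untreated mouse 14 (0.057). Summed neutrophil markers were at 129 to 1120 CPM in these WT sdCAMs after LPS and 0 to 79.4 CPM before, and summed microglial markers went from 15.5 to 34.2% of MG down to 5.97 to 11.2%. Their part in the differences was not tested.

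**Figure D4:**
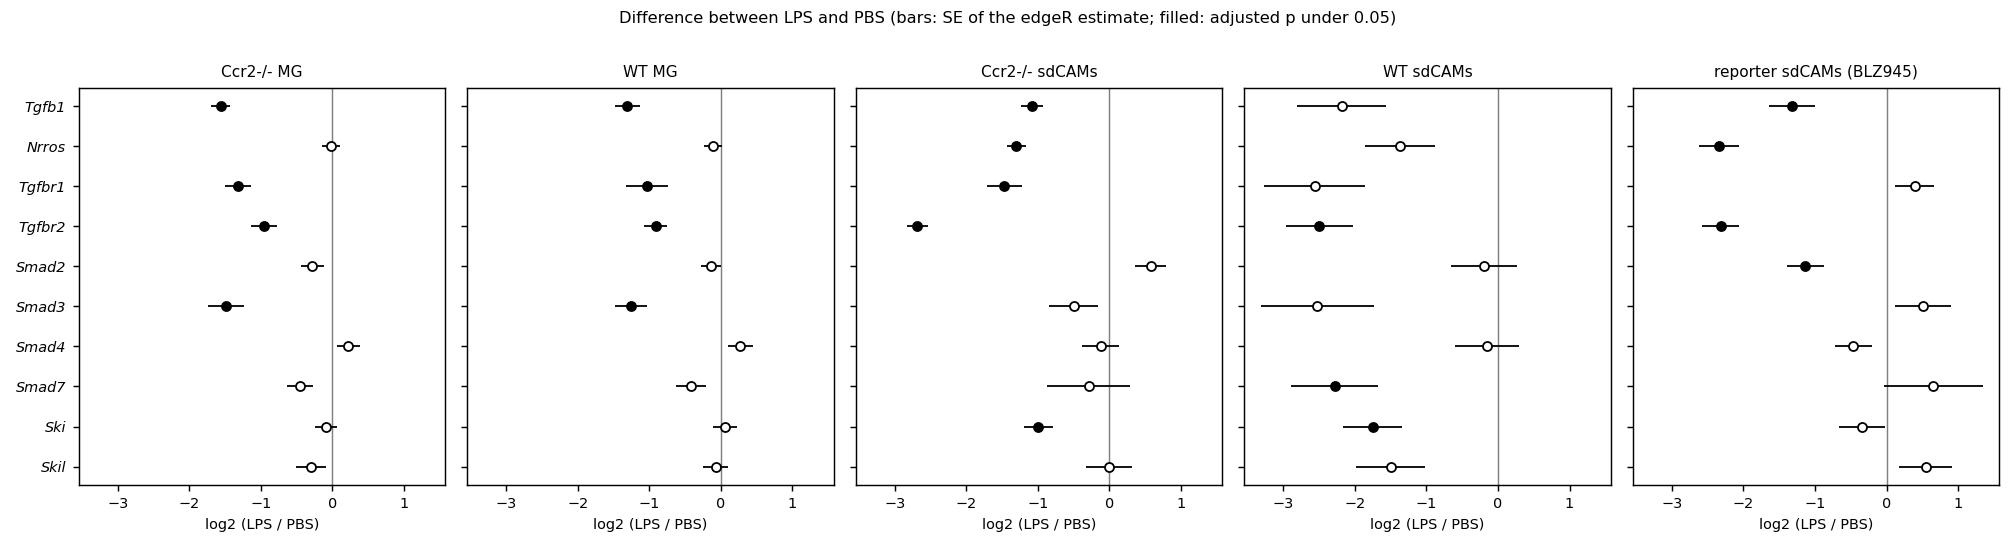
Fitted log2 difference between LPS and PBS for each member in MG and sdCAMs of Ccr2-/- and WT mice and in reporter sdCAMs summed per mouse, with bars for the SE and filled points where the adjusted p was under 0.05. Tgfb1, Tgfbr1, Tgfbr2 and Smad3 are filled in both MG panels, Nrros is near 0 in MG and at -1.30 in Ccr2-/- sdCAMs, and Tgfbr2 is filled in all 5 panels.

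Whether the LPS difference was unequal in sdCAMs and MG was tested by an interaction term. In Ccr2-/- mice, 1 member passed with a higher value in sdCAMs and 3 with a lower one, where 3.5 and 4.64% of all genes passed. For Tgfbr2 the LPS difference was lower in sdCAMs than in MG by -1.70 ± 0.23 on the log2 scale (edgeR, adjusted p = 6.49e-05), and for Nrros by -1.25 ± 0.18 (adjusted p = 0.000142). In both genes sdCAMs lost more of their untreated level than MG did. Ski had an interaction of -0.87 ± 0.25 (adjusted p = 0.0346) and Smad2 of 0.89 ± 0.26 (adjusted p = 0.0422). With the replicate block, which compares the cell types within each mouse, Ski (adjusted p = 0.0748) and Smad2 (adjusted p = 0.0723) no longer passed and 2 members did. Tgfbr2 and Nrros passed without any 1 of the 12 libraries. With 1 library left out, Smad2 kept its call only when that was the sdCAM library of mouse 3m or V4f, and Ski only when it was the sdCAM library of mouse 3m, 5f or V1m or the MG library of V1m.

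For Tgfb1 and Tgfbr1 the interaction in Ccr2-/- mice was 0.52 ± 0.18 (edgeR, adjusted p = 0.0906) and -0.11 ± 0.32 (adjusted p = 0.911). They fell with LPS in both cell types of these mice, and a difference between the cell types in that fall was not shown by edgeR, though for Tgfb1 it passed by DESeq2 (log2 0.56, adjusted p = 0.0113). For Smad3, which passed in MG and not in sdCAMs, the interaction was 1.02 ± 0.42 and did not pass either (adjusted p = 0.157).

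In WT mice, 0 members passed with a higher and 1 with a lower value in sdCAMs, Ski at -1.89 ± 0.44 (edgeR, adjusted p = 0.0419), beside 0.434 and 0.891% of all genes. In WT MG Ski was at 426 to 605 CPM after LPS and 437 to 515 CPM before, overlapping groups, whereas in WT sdCAMs it went from 151 to 238 CPM down to 48.3 to 73.3 CPM. With the replicate block its interaction was -1.87 (adjusted p = 0.112) and 0 members passed. The call was also lost without 10 of the 12 libraries, the exceptions being the sdCAM libraries of mice 4 and 9. Tgfbr2 at -1.66 (adjusted p = 0.0596) and Smad7 at -1.90 (adjusted p = 0.0989) had like sizes without passing.

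After LPS the cell types differed as follows. In Ccr2-/- CTL mice, 1 member was higher in sdCAMs than in MG, Smad2, and 6 were lower, where 13.8 and 13.2% of all genes passed. Tgfbr1 differed by -2.91, Smad7 by -3.18, Ski by -2.26 and Skil by -1.81 on the log2 scale (edgeR, adjusted p = 3.54e-08, 7.94e-07, 2.26e-08 and 0.000126). Tgfbr2, level between the cell types before LPS, was now at 150 to 181 CPM in sdCAMs and 481 to 497 CPM in MG, without overlap (log2 -1.59 ± 0.16, adjusted p = 4.58e-07). Nrros, higher in sdCAMs before LPS, was now at 408 to 480 CPM in sdCAMs and 382 to 451 CPM in MG, overlapping groups (log2 0.04 ± 0.13, adjusted p = 0.868). Smad3 differed by -0.90 ± 0.30 (adjusted p = 0.0314), a call lost without the sdCAM library of mouse V1m (adjusted p = 0.0547), the sdCAM or MG library of V2m (0.145 and 0.104) or the MG library of V4f (0.0567).

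Smad2 was at 115, 133 and 109 CPM in these sdCAMs and 78.1, 81.4 and 91.7 CPM in MG (log2 0.51 ± 0.18, edgeR adjusted p = 0.0491). The libraries did not overlap, but the call was lost with the replicate block (adjusted p = 0.0746) and without any 1 of the 6 libraries (adjusted p = 0.0512 to 0.196). In plain CPM of the MG of the same mouse, Smad7 was at 7.06 to 12.6%, Tgfbr1 at 9.94 to 11.5% and Tgfbr2 at 25.3 to 29.6% in these sdCAMs, with the summed microglial markers at 5.53 to 9.11%.

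In WT CTL mice after LPS, 9 members were lower in sdCAMs and 0 higher, with Smad2 alone not passing (log2 -0.68, edgeR adjusted p = 0.105), where 17.2% of all genes passed as lower and 19.5% as higher. Ski differed most, with 48.6, 73.3 and 48.3 CPM in sdCAMs and 426, 605 and 553 CPM in MG (log2 -3.23 ± 0.34, adjusted p = 1.11e-05). Smad7 differed by -2.48, Skil by -2.59, Smad3 by -2.22, Tgfbr1 by -2.18, Tgfbr2 by -2.16, Tgfb1 by -1.59, Nrros by -1.09 and Smad4 by -0.88. These WT values rest on sdCAM libraries that all carry the IEG mark and the largest Saa3 shares, and with that mark as a covariate 5 members passed and Tgfb1 had a difference of -0.01 (adjusted p = 1). Smad4 lost its call with the replicate block (adjusted p = 0.0612) and without each library but the sdCAM library of mouse 1, and Nrros without the MG library of mouse 1 (adjusted p = 0.0517), while Smad2 passed without the sdCAM library of mouse 1 (log2 -0.97, adjusted p = 0.048). Scaling moved the median of all genes from -0.123 to 0.128 when DESeq2's size factors were used, and 7 members then passed.

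Repopulation was compared as BLZ945 with LPS against CTL with LPS, in both cell types of both genotypes, and 0 of the 10 members passed in any of the 4 comparisons by edgeR, and 0 by DESeq2. At an unadjusted p under 0.05 there were 0 members in WT MG, 1 in WT sdCAMs, 2 in Ccr2-/- MG and 0 in Ccr2-/- sdCAMs. In the same order, 776 of 11789, 758 of 10504, 769 of 11558 and 998 of 11941 genes tested had such an unadjusted p. Few genes of any kind passed: 0.0594% as higher and 0.017% as lower in WT MG, 0.00865% each way in Ccr2-/- MG, and 0% each way in WT and in Ccr2-/- sdCAMs. Such a result does not show that the levels were equal, and the values follow.

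In WT MG the 10 fitted log2 differences lay between -0.28 for Smad3 and 0.25 for Tgfbr2. Tgfbr1 was at 1242, 1136 and 1650 CPM in BLZ945 mice 8, 11 and 12 and at 693 to 1854 CPM in CTL mice, overlapping groups. In Ccr2-/- MG, Tgfbr1 was at 768, 842 and 1315 CPM in BLZ945 mice B2m, B3m and B4f and at 1239 to 1626 CPM in CTL mice (log2 -0.52 ± 0.18, edgeR adjusted p = 0.686), and without mouse B4f it passed at -0.80 (adjusted p = 0.0322). Ski was at 287, 240 and 365 CPM in these mice and 337 to 416 CPM in CTL mice (log2 -0.36 ± 0.16, adjusted p = 0.726), while Tgfb1 at 124, 130 and 136 CPM lay just above CTL mice at 97.3 to 120 CPM (log2 0.21, adjusted p = 0.843).

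In WT sdCAMs the differences were larger and so were their errors. Tgfb1 was at 135, 84.4 and 20.3 CPM in BLZ945 mice 8, 11 and 12 and at 28.7 to 41.7 CPM in CTL mice (log2 1.20 ± 0.60, edgeR adjusted p = 0.706). The library of mouse 12 was the lowest of all 6, and it is the BLZ945 library with the IEG mark and 21% Saa3 counts. Without it Tgfb1 passed at 1.65 (adjusted p = 0.0489). Ski was at 126, 134 and 92.3 CPM in BLZ945 mice, each above the 48.3 to 73.3 CPM of CTL mice (log2 1.02 ± 0.41, adjusted p = 0.689). Tgfbr1 was at 283, 338 and 979 CPM in BLZ945 mice, with mouse 12 here the highest, and at 185 to 378 CPM in CTL mice (log2 0.84 ± 0.67, adjusted p = 0.758). Summed microglial markers were at 22.2, 24.2 and 7.95% of MG in these 3 BLZ945 libraries and at 5.97 to 11.2% in CTL libraries, and their part was not tested.

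In Ccr2-/- sdCAMs the BLZ945 and CTL groups lay close together. Tgfbr2 was at 175, 169 and 182 CPM in BLZ945 mice and 150 to 181 CPM in CTL mice (log2 0.10 ± 0.14, edgeR adjusted p = 0.909), and Nrros at 387, 492 and 404 CPM and 408 to 480 CPM (log2 -0.05 ± 0.14, adjusted p = 0.954). Both pairs of groups overlapped. The widest difference was that of Smad7, at 5.77, 5.27 and 4.55 CPM in BLZ945 mice and 5.91 to 9.91 CPM in CTL mice (log2 -0.53 ± 0.58, adjusted p = 0.867). Tgfb1 had 71.2 to 85.5 CPM in BLZ945 mice, each below the 97.1 to 102 CPM of CTL mice (log2 -0.31 ± 0.15, adjusted p = 0.613).

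Reporter mice gave the levels in repopulated cells at rest, since all had received BLZ945. The counts of tdT+ and tdT- sdCAMs were summed per mouse for the tests against MG and of LPS. With PBS, 4 members were lower in sdCAMs than in MG, Tgfbr1, Smad3, Smad7 and Ski, and 0 higher, where 2.96 and 6% of all genes passed. Smad7 was at 4.84 to 11.1 CPM in the 6 sdCAM libraries and at 86.0, 146 and 88.8 CPM in MG of mice 174, 175 and 177 (log2 -3.93 ± 0.61, edgeR adjusted p = 0.00157). Smad3 was at 10.4 to 23.5 CPM in sdCAMs and 53.2 to 115 CPM in MG (log2 -2.43 ± 0.43, adjusted p = 0.00343), and Ski at 84.7 to 195 CPM and 371 to 516 CPM (log2 -1.77 ± 0.35, adjusted p = 0.00713). None of these overlapped, and the call for Ski was lost without the sdCAMs of mouse 174 (adjusted p = 0.051).

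The MG library of mouse 175 stood apart from the other 2. It had 10815 genes detected, the fewest of all libraries, and its Tgfbr1 was at 424 CPM where MG of mice 174 and 177 had 1713 and 2644 CPM. Its Skil was at 3.47 CPM, against 163 and 189 CPM. Tgfbr1 was at 248 to 368 CPM in sdCAMs and passed (log2 -2.33 ± 0.59, edgeR adjusted p = 0.0265), a call lost with the replicate block (log2 -1.999, adjusted p = 0.144) and without any sdCAM sum or either other MG library (adjusted p = 0.056 to 0.105). Nrros was at 668 to 1180 CPM in sdCAMs and 301, 676 and 368 CPM in MG, overlapping only through the MG of mouse 175 (log2 1.14 ± 0.35, adjusted p = 0.0607). It passed by DESeq2 (log2 1.11, adjusted p = 0.0225), without the counts of Saa3 (edgeR, 0.0462) and, at 1.57, without that MG library (edgeR, 0.00955). Tgfbr2 was at 651 to 850 CPM in sdCAMs and 916, 451 and 833 CPM in MG (log2 0.12 ± 0.33, adjusted p = 0.887).

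With LPS, repopulated reporter MG had 0 members that passed by edgeR, 5 at an unadjusted p under 0.05 and 1 by DESeq2, where 0.662% of all genes passed as higher and 0.423% as lower. An unadjusted p under 0.05 was found for 1510 of the 10882 genes tested. Tgfb1 was at 94.5, 52.4 and 57.8 CPM in LPS mice 1, 5 and 7 and at 160, 448 and 258 CPM with PBS, without overlap (log2 -2.13 ± 0.51, edgeR adjusted p = 0.0993), and it was the member called by DESeq2 (log2 -2.05, adjusted p = 0.00326). Tgfbr2 was at 222, 271 and 392 CPM with LPS and 451 to 916 CPM with PBS (log2 -1.34 ± 0.39, edgeR adjusted p = 0.145), and without PBS mouse 175 it passed at -1.58 (adjusted p = 0.0461). Tgfbr1, at 353 to 1267 CPM with LPS and 424 to 2644 CPM with PBS, overlapped.

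In reporter sdCAMs with LPS, 4 members passed as lower, Tgfb1, Tgfbr2, Smad2 and Nrros, and 0 as higher. Of all genes, 11.8 and 15.2% passed as lower and higher. Depth differed with treatment in these sdCAMs. Library totals were 8652557 to 9850283 counts with PBS and 2060240 to 8751293 with LPS. With LPS all but tdT- cells of mouse 5 had 5467630 or fewer. The part of depth in the member differences was not tested. Nrros was at 109 to 286 CPM in the 6 libraries with LPS and 668 to 1180 CPM in those with PBS (log2 -2.34 ± 0.28, edgeR adjusted p = 0.000671), and Tgfbr2 at 71.8 to 240 CPM and 651 to 850 CPM (log2 -2.32 ± 0.26, adjusted p = 0.000512). Neither overlapped. Tgfb1 was at 29.0 to 99.9 CPM with LPS and 107 to 183 CPM with PBS (log2 -1.33 ± 0.32, adjusted p = 0.015). Tgfbr1 did not follow: it was at 142 to 709 CPM with LPS and 248 to 368 CPM with PBS, and its log2 difference of 0.39 ± 0.27 did not pass (adjusted p = 0.323). The library at 709 CPM, tdT+ cells of mouse 5, had summed microglial markers at 81.6% of its MG. With LPS, summed neutrophil markers in these sdCAMs went from 0 to 1.4 CPM up to 10.8 to 1420 CPM, sdCAM markers from 7250 to 11700 CPM down to 688 to 4520 CPM and monocyte markers from 147 to 306 CPM down to 6.54 to 50.3 CPM, and their part in the member differences was not tested. Without the sdCAMs of PBS mouse 177 Tgfb1 no longer passed (adjusted p = 0.0638), nor did Smad2 without those of PBS mouse 175 (adjusted p = 0.0585).

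For a pair of LPS libraries, tdT- cells of mouse 1 and tdT+ cells of mouse 7, the index number in the column name is that given by the labels for the other library. Columns were assigned by mouse and cell population, and results that use them were also computed with the columns exchanged. After exchange, 2 members passed for LPS in sdCAMs, Nrros and Tgfbr2, while Tgfb1 (adjusted p = 0.0538) and Smad2 (adjusted p = 0.0667) did not. In the comparison of sdCAMs with MG the exchange moved Tgfbr1 to an adjusted p of 0.0532.

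Descent from Ccr2-expressing cells was compared as tdT+ against tdT- sdCAMs. With PBS, 0 members passed by edgeR or DESeq2, 0 had an unadjusted p under 0.05, and 0% of all genes passed as higher and 0.0236% as lower. Of the 12708 genes tested, 566 had an unadjusted p under 0.05. Nrros was at 874, 1071 and 668 CPM in tdT+ and 999, 1180 and 966 CPM in tdT- cells of mice 174, 175 and 177 (log2 -0.27 ± 0.28, edgeR adjusted p = 1), and Tgfbr2 at 651, 697 and 839 CPM and 850, 803 and 842 CPM (log2 -0.19 ± 0.33). The 10 fitted differences lay between -0.27 for Nrros and 0.56 for Smad7, whose SE was 0.93.

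With LPS, 3 members passed as higher in tdT+ cells, Smad2, Nrros and Ski, and 0 as lower, where 3.85 and 6.92% of all genes passed. Smad2 was at 51.2, 67.2 and 54.7 CPM in tdT+ and 19.9, 17 and 24 CPM in tdT- cells of mice 1, 5 and 7 (log2 1.49 ± 0.34, edgeR adjusted p = 0.00934). Nrros was at 286, 259 and 244 CPM and 154, 124 and 109 CPM (log2 1.00 ± 0.29, adjusted p = 0.0358), and Ski at 120, 190 and 149 CPM and 28.0, 49.1 and 93.4 CPM (log2 1.41 ± 0.42, adjusted p = 0.0426). Each was without overlap as the columns are labelled.

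With the columns exchanged none of the 3 passed: Smad2 had a log2 difference of 0.53 (edgeR, adjusted p = 0.947), Nrros 0.55 (adjusted p = 0.904) and Ski 0.21 (adjusted p = 0.995). Of all genes 1368 passed as labelled and 0 after exchange, so these differences rest on the assignment of that pair of libraries. Saa3 made up 14.5 to 28.3% of counts in the tdT- and 0.68 to 2.74% in the tdT+ libraries as labelled. Summed neutrophil markers were at 268 to 1420 CPM in the tdT- and 10.8 to 56.3 CPM in the tdT+ libraries, and their part in the differences was not tested. The tdT+ library of mouse 5 also stood apart, with summed microglial markers at 81.6% of its MG where the other reporter sdCAM libraries had 1.76 to 10.2%. Its Tgfbr1 was at 709 CPM beside 142 and 175 CPM in tdT+ cells of mice 1 and 7, and without it Tgfbr1 was lower in tdT+ than in tdT- cells (log2 -1.62, adjusted p = 0.0269), which stood at 686, 227 and 553 CPM. Ski lost its call without it (adjusted p = 0.122) and without 4 of the other 5 libraries, all but tdT- cells of mouse 7. Nrros lost its call without tdT+ cells of mouse 1 (adjusted p = 0.0903), tdT+ cells of mouse 7 (0.0595) or tdT- cells of mouse 7 (0.0875). Tgfb1 passed without tdT- cells of mouse 7 (log2 1.29, adjusted p = 0.0482).

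**Figure D5:**
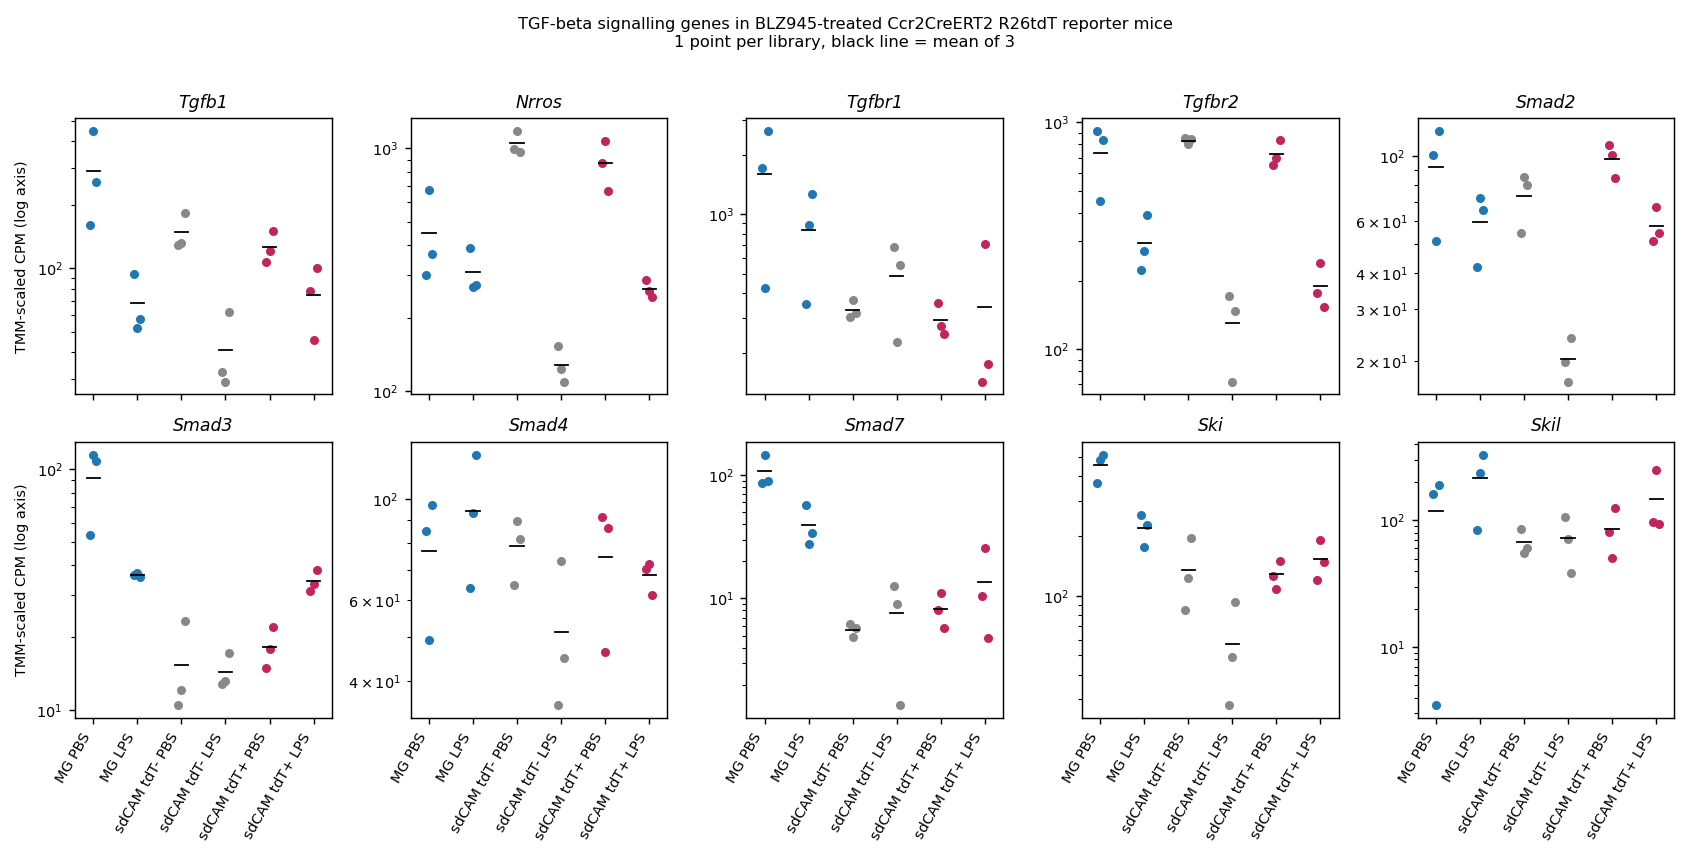
Level of each member in every reporter library, as TMM-scaled CPM on a log axis whose range differs between panels, in MG (blue), tdT- sdCAMs (grey) and tdT+ sdCAMs (red) with PBS or LPS, with a black line at the mean of 3. Nrros and Tgfbr2 of sdCAMs lie at 668 to 1180 and 651 to 850 CPM with PBS and at 109 to 286 and 71.8 to 240 CPM with LPS, and 1 MG library with PBS, that of mouse 175, has Skil at 3.47 CPM.

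Across the 19 comparisons Tgfbr2 passed as lower in 8, Tgfbr1 in 7, Tgfb1 and Smad3 in 6 each, and none of these passed as higher in any. Ski passed as lower in 9 and higher in 1, Smad7 as lower in 5 and Skil as lower in 3. Nrros passed as higher in 2 and lower in 4, Smad2 as higher in 3 and lower in 1, and Smad4 only 1 time, as lower. Many of these comparisons share libraries, so the counts are a description. The share of all genes that passed as often was not computed, so whether these counts are unusual is not known.

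Over the 12 groups of WT and Ccr2-/- mice, the group means of the members formed patterns that can be described by Pearson's r of log2(CPM + 1). The points share libraries and depth within a table, and no p is given. They also join WT and Ccr2-/- tables that were scaled apart, so differences between the tables enter every r. Mean Nrros in untreated sdCAMs, for example, was 351 CPM in WT and 1060 CPM in Ccr2-/- mice. The r within each genotype was not computed. Ski and Skil had an r of 0.964, Tgfbr1 and Smad7 of 0.949, and Tgfbr1 and Smad3 of 0.92. Tgfb1 and Tgfbr2 had 0.90, whereas Nrros had 0.022 with Tgfbr1 and -0.132 with Smad7. Among 8692 genes, those most like Tgfbr1 were Mylip (0.987), Epb41l2 (0.985) and Arhgap5 (0.982). The genes most like Tgfbr2 were Man2b1 (0.993), Pla2g15 (0.991) and Lpar6 (0.983), and those most like Nrros were Asah1 (0.971), Pea15a and G3bp2 (0.96 each). Tgfb1 was most like Rap1gds1 (0.972), Smad3 most like Plxdc2 (0.983), Smad7 most like Cdc42ep3 (0.978), Ski most like Plcg1 (0.973) and Skil most like Arhgap27 (0.978). Smad2 and Smad4, whose levels moved least, were most like Meak7 (0.974) and Dgcr2 (0.979).

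The wider pathway was followed in 80 further genes, of which 79 were in the tables, grouped in lists by role to which the members were added. Levels of these genes are mean CPM on the TMM scale of the fit named. Among 12 widely used TGF-beta target genes, Smad7 and Skil included, 9 could be tested in MG, and with LPS 5 passed as higher and 1 as lower in each genotype, with medians of 1.64 in Ccr2-/- and 1.43 in WT MG on the log2 scale. Of all genes, 19.4 and 15.5% passed as higher and lower in Ccr2-/- MG and 16.7 and 14.2% in WT MG. The genes that rose included Id2, an inhibitor of bHLH transcription factors, at 32.2 ± 9.06 CPM in untreated and 347 ± 25.5 CPM in LPS-treated Ccr2-/- MG (SD, n = 3, log2 3.43 ± 0.32, edgeR adjusted p = 2.49e-06), and the cell cycle inhibitor gene Cdkn1a (log2 3.24 ± 0.35, adjusted p = 9.11e-06). Tgfbi, a secreted matrix protein induced by TGF-beta, rose by a log2 difference of 1.64 ± 0.20 in Ccr2-/- MG (adjusted p = 3.5e-05). Pmepa1, a target that dampens Smad signalling, fell from 553 ± 49.5 to 171 ± 7.68 CPM (log2 -1.69 ± 0.13, adjusted p = 4.67e-07). The targets thus moved in both directions while the ligand and receptors fell.

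The microglial genes known to depend on TGF-beta, 13 of which could be tested, were mostly lower. In MG with LPS, 1 passed as higher and 12 as lower in Ccr2-/- mice and 0 and 11 in WT mice, with medians of -1.86 and -1.82 on the log2 scale, beside the same shares of all genes. P2ry12, the purinergic receptor of resting microglia, went from 14400 ± 367 to 1480 ± 208 CPM in Ccr2-/- MG (log2 -3.28 ± 0.17, edgeR adjusted p = 1.42e-08) and Gpr34, a lysophosphatidylserine receptor gene, from 5520 ± 146 to 456 ± 53.2 CPM (log2 -3.60 ± 0.28, adjusted p = 5.57e-07). In untreated Ccr2-/- sdCAMs 11 of these genes were lower and 1, Gas6, higher than in MG, where 9.9 and 12.5% of all genes passed. Gas6, a ligand of receptors for dying cells, was at 2060 ± 143 CPM in sdCAMs and 217 ± 14.1 CPM in MG (log2 3.25 ± 0.53, adjusted p = 0.000137). The microglial markers summed above are all in this list, so its lower level in sdCAMs repeats the marker share given above.

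The other lists were also counted in untreated Ccr2-/- mice, where 9.9% of all genes were lower and 12.5% higher in sdCAMs. Of 11 receptor genes tested, 5 were lower in sdCAMs and 0 higher, of 13 negative regulators 5 and 0, of 7 Smads 2 and 0, of 10 latency and activation genes 2 and 1, of 8 cofactors 0 and 1, and of 6 ligands 1 and 1. These counts repeat calls of members. Tgfbr1 is among the lower receptors, and Smad7, Ski and Skil are among the lower negative regulators. Smad3 and Smad7 are the lower Smads, Tgfb1 is the lower ligand and Nrros the higher latency gene. Without the members, 64 wider genes were tested, the microglial ones included, of which 20 were lower and 7 higher. The higher ligand was Bmp2, at 91.1 ± 11.5 CPM in sdCAMs and 0 in all 3 MG libraries. Tgfbi was likewise higher in sdCAMs, at 1450 ± 52.7 CPM and 61.2 ± 8.23 CPM in MG (log2 4.57 ± 0.21, edgeR adjusted p = 1.13e-11). After LPS, Mmp14, a membrane metalloprotease able to release latent TGF-beta, was at 1400 ± 211 CPM in Ccr2-/- sdCAMs, from 35 ± 11.1 CPM before (log2 5.32 ± 0.27, adjusted p = 4.17e-08), and its interaction with cell type was 3.35 ± 0.41 (adjusted p = 2.71e-05). Mmp14 thus rose in Ccr2-/- sdCAMs while Nrros, Tgfb1 and both receptors fell there. The rise was not confined to sdCAMs, since in WT MG Mmp14 went from 54.2 ± 4.62 to 238 ± 125 CPM (log2 2.13 ± 0.35, edgeR adjusted p = 0.001). In WT sdCAMs it went from 20.3 ± 4.71 to 250 ± 82.2 CPM (log2 3.62 ± 0.52, adjusted p = 0.0055). Of the 10 latency and activation genes tested, Mmp14's list, 0 passed the WT interaction.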

How the data were processed

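The authors deposited 3 tables of raw counts per gene symbol, 18 libraries each, for WT, Ccr2-/- and reporter mice. RNA was amplified by a SMARTer low-input kit and made into Nextera XT libraries, and 50-cycle single reads were taken on a HiSeq 1000. The submitters' processing notes name STAR 2.7.11a, featureCounts 2.0.8 and bcl2fastq 2.20, with Gencode M36 and mm10 or M39, without saying which genome served these files, and the strand setting is not given in the sources used here. Counting error only is covered by the depth given, since reads carry no molecular identifiers.

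Counts were fitted with edgeR 4.0.16 in R 4.3.3 (filterByExpr, TMM, quasi-likelihood test, two-sided, Benjamini-Hochberg over all genes tested). Cell types were compared in a fit of a whole table, and LPS or BLZ945 in fits of 1 cell type, with tdT+ and tdT- counts summed per mouse where stated. DESeq2 1.42.0, other scalings, filters, covariates and left-out libraries were alternatives, and the steps were tested on simulated data. MG and sdCAMs with the same mouse number come from the same animal, and r of their deviations from group means was -0.132 to 0.33, so a replicate block was fitted too. Groups were taken from the labels. The p-values rest on a spread between libraries pooled over all groups of a fit, 3 per group, in most fits including groups not compared. Without the replicate block, populations from the same mouse entered the cell type, interaction and tdT fits as if independent.

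The members and lists were chosen with earlier results of these data known. All 10 members were named in each comparison, with up to 3 higher and 3 lower passing genes of the wider lists by smallest p (mean level 10 CPM or more), of which the text gives some. Likeness was computed among genes at or above a mean of 10 CPM. Exon lengths came from GENCODE vM21 and promoters from RefSeq. The tables were scaled apart and not compared by tests. Removing the counts of Saa3 and exchanging a pair of reporter columns in the comparison of sdCAMs with MG were alternatives chosen after seeing the data. 1 of the genes in the microglial lists is not reported here and was left out of the marker sums and list counts.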

Additional observations from a re-analysis of the deposited data

Results flagged for a closer look

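In 5 cases the LPS difference of a member was unequal in sdCAMs and MG by the interaction term of edgeR, adjusted over all genes. In Ccr2-/- mice these were Tgfbr2 (-1.70 on the log2 scale, adjusted p = 6.49e-05), Nrros (-1.25, 0.000142), Smad2 (0.89, 0.0422) and Ski (-0.87, 0.0346), and in WT mice Ski (-1.89, 0.0419). For Tgfbr2 and Nrros the difference passed without any 1 of the 12 libraries and with the replicate block. Smad2 and Ski in Ccr2-/- mice and Ski in WT mice passed no longer with the replicate block, at adjusted p = 0.0723, 0.0748 and 0.112. In Ccr2-/- mice, summed sdCAM markers were at 14300 to 14700 CPM before and 4210 to 4600 CPM after LPS in sdCAMs, and their part in these differences was not tested.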

How the results depend on the processing

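The limits lie mainly in 3 libraries per group, in the IEG mark that all WT CTL sdCAMs carry, and in the assignment of a pair of reporter columns. Of the members' differences, 1369 of those recomputed under other settings kept direction and side of the threshold, 29 passed anew, 41 passed no longer and 1 turned. The one that turned was Ski for tdT+ against tdT- with LPS, at -0.058 with the columns exchanged and a replicate block. With 1 library left out, 1171 stayed, 11 passed anew and 78 passed no longer. The cause was not tested unless stated.

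Numbers of members passed changed by over 1.5 times as follows. DESeq2 gave 2 in untreated WT mice in place of 1, 3 for the WT interaction in place of 1, 8 for LPS in WT sdCAMs in place of 3 and 1 for LPS in reporter MG in place of 0. DESeq2 size factors gave 0 for the WT interaction and 1 for tdT+ against tdT- with LPS in place of 3, and the study's low-count rule gave 0 for the WT interaction. With the IEG mark as a covariate there were 2 in untreated WT mice, 5 in place of 9 in WT CTL mice, 3 for the WT interaction and 5 for LPS in WT sdCAMs, where fitting only the 6 libraries gave 7. The replicate block gave 0 for the WT interaction and 2 in place of 4 for the Ccr2-/- one, and beyond the calls named in the report the block changed none of the members' calls. A limit of 1 on the log2 change also gave 2 for the Ccr2-/- interaction, without Ski and Smad2. That limit removed Tgfb1 in untreated and Smad2 and Smad3 in CTL Ccr2-/- mice, Smad4 in WT CTL mice, Tgfbr2 for LPS in MG of both genotypes, Ski for LPS in Ccr2-/- sdCAMs and Nrros for tdT+ against tdT- with LPS. Beside the changes by DESeq2 given in the report, Smad4 no longer passed in WT CTL mice (adjusted p = 0.122). Exchanging the columns gave 2 in place of 4 for LPS in reporter sdCAMs and, with or without the block, 0 for tdT+ against tdT- with LPS. With 1 library left out the number passed was 1 to 2 in untreated WT mice, 7 to 10 in WT CTL mice, 0 to 1 for the WT interaction, 3 to 5 and 0 to 2 for LPS in WT MG and sdCAMs, 7 in untreated and 5 to 6 in CTL Ccr2-/- mice, 2 to 4 for the Ccr2-/- interaction, 4 and 5 for LPS in Ccr2-/- MG and sdCAMs, 0 to 1 for BLZ945 in WT sdCAMs and Ccr2-/- MG, 2 to 5 for reporter sdCAMs against MG, 0 to 1 and 3 to 4 for LPS in reporter MG and sdCAMs, 1 to 3 for tdT+ against tdT- with LPS and 0 elsewhere.

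Of all genes, DESeq2 called 880 in place of 174 for the WT interaction, 73 in place of 9 and 11 in place of 0 for BLZ945 in WT MG and sdCAMs, 38 in place of 2 and 88 in place of 0 in Ccr2-/- ones, 1766 in place of 664 for LPS in WT sdCAMs, 2054 in place of 1142 in reporter sdCAMs against MG, 851 in place of 118 for LPS in reporter MG and 83 in place of 3 for tdT+ against tdT- with PBS. The fit with the IEG covariate called 1161 in place of 2291 in untreated and 1092 in place of 4816 in CTL WT mice. It called 433 in place of 174 for the WT interaction and 1142 in place of 664 for LPS in WT sdCAMs. Fitting only the 6 libraries gave 1359 for the latter. DESeq2 size factors moved the median of all genes from -0.226 to -0.069 for the WT interaction, from 0.029 to 0.129 in untreated WT mice and from 0.113 to -0.015 for tdT+ against tdT- with LPS.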
